A study of Mus musculus with 72 samples.

Results

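The genes of the mitochondrial ribosome were followed in Eμ-Myc B-lymphoma, a mouse lymphoma driven by a Myc transgene under the immunoglobulin heavy chain enhancer, and were taken as every symbol made of Mrpl or Mrps, a number and at most 1 letter. The rule found 77 members in all 4 count tables, which share 28369 genes: 48 with symbols of the large subunit (Mrpl) and 29 of the small subunit (Mrps). Of these, 46 have a homologue in the bacterial ribosome, 30 occur in mitochondria alone, and Mrps36 is a subunit of the 2-oxoglutarate dehydrogenase complex rather than of the ribosome. Mrps30 and Mrps18a carry small subunit symbols but sit in the large subunit by structure. In all tables, 76 of the 77 members passed the filter on low counts. The exception was Mrpl53, whose exons lie almost entirely under another gene on the same strand.

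Mitochondrial ribosomes translate the few proteins that mitochondrial DNA encodes, all of them subunits of the respiratory chain and of ATP synthase. Their RNA comes from mitochondrial DNA, but every one of their proteins is made on cytosolic ribosomes from nuclear mRNAs and imported. Myc and the kinase complex mTORC1 are both known to raise the output of nuclear genes for mitochondria and for cytosolic ribosomes, and cells with high Myc have been reported to depend on mitochondrial translation.

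For the acute study, C57BL/6 mice carried transplanted lymphoma of clone 4242, marked with a Gfp vector. On day 10 each of 4 groups of 6 mice had a 2 h treatment with vehicle, with CX5461 (35 mg/kg, an inhibitor of RNA polymerase I, the enzyme of ribosomal RNA synthesis), with everolimus (5 mg/kg, an inhibitor of mTORC1) or with the combination of the same doses. For the relapse study, early-passage lines of clone 107 with the same vector, kept in culture for 2 to 3 passages, came from lymph nodes of mice that relapsed after vehicle (drug-naive lines 6, 33 and 38), CX5461 (lines 14, 20 and 39), everolimus (lines 4, 12 and 26) or the combination (lines 8, 9 and 31). Cytoplasmic RNA (called input) and the RNA of gradient fractions with at least 4 ribosomes (called polysomal) were sequenced from every mouse and line, for 72 libraries in all. Each study rests on a single lymphoma clone, and vehicle or naive lymphomas carried the same transgene and vector as the treated ones. The comparisons ask how ribosome-directed drugs acutely changed RNA and its loading on ribosomes, and how lymphomas that relapsed under them differed.

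Acute libraries held 17.1 to 24.7 M counts (input) and 11.5 to 20.9 M (polysomal), and relapse libraries 14.6 to 26 M and 15.5 to 30.4 M. The members together took 0.241% to 0.346%, 0.285% to 0.434%, 0.262% to 0.344% and 0.396% to 0.446% of these counts. All 8 B cell markers were above 1 CPM (counts per M counts) in every acute library, and 7 of 8 in every relapse library. The lymph nodes also held other cells: in the acute input summed T cell markers were 40.4 to 81.8 CPM, myeloid markers 447 to 697 CPM and stroma markers 1036 to 2135 CPM. In the relapse input the same sums were at most 4.99 CPM, 4.32 to 6.20 CPM and 26.2 to 44.6 CPM. In such bulk samples fewer lymphoma cells and less RNA per cell cannot be told apart. Of the acute libraries, 3 of input RNA held over 10% of counts in Gm26870 and Gm10800 and 4 of polysomal RNA held over 10% in Lars2 and Yam1. Among the members, 18 of 77 share over 10% of their exon bases with another gene, so their counts can hold or lose reads of a neighbour.

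In the relapse study the polysomal libraries of CX5461 lines 14 and 39 stood apart. There, 214 genes had no counts in both although they had at least 10 CPM in each of the other 10 polysomal libraries, and no gene did so in the input RNA of the same lines. Mrpl57, a small protein of the large subunit, was the 1 member among them, at 0 CPM in both against 34.9 to 47.7 CPM in the other 10, with 35.9 and 27.8 CPM in the input of the same lines. In these libraries 42 of 77 members (54.5%) lay outside the range of the other 10, 15 below and 27 above, as did 47.4% of 10212 genes with a mean of at least 5 CPM. Polysomal values of CX5461 lines are therefore given with and without these libraries. This check was chosen after values had been seen.

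Promoter sequences are shown for 4 members to set the results against what their promoters hold. Mrpl12 was the member with the highest level, Mrpl22 and Mrps22 were lower after the acute combination, and Mrpl9 was higher in combination lines and among the most polysome-loaded. RefSeq starts were found for 68 of 77 members. The sequences are the 150 bases before the start, 5′ to 3′ on the gene's strand, in build GRCm38.p6, at chr3:94443186-94443335 (plus strand) for Mrpl9, chr11:120484487-120484636 (plus) for Mrpl12, chr11:58171514-58171663 (plus) for Mrpl22 and chr9:98601680-98601829 (minus) for Mrps22. At most 24 of the 150 bases lie in an annotated exon of the gene. Capitals mark a match to the core of the NRF1 site (GCGCATGC, either strand) or to the ETS site (CCGGAAGT), 2 factor families known for nuclear genes of mitochondria, and the stretch of Mrpl12 holds neither.
Mrpl9: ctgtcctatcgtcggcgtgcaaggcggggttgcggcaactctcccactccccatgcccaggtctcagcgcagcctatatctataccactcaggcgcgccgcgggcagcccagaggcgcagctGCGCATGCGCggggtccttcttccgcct
Mrpl12: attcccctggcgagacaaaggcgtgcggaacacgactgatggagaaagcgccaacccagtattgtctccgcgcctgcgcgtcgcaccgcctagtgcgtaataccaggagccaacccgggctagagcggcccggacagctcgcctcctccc
Mrpl22: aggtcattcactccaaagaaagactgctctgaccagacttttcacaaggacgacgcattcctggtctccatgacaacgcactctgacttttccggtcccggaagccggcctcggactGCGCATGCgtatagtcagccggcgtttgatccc
Mrps22: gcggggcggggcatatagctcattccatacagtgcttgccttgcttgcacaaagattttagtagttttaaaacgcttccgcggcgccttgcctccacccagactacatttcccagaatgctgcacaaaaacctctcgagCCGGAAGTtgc

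Within the 250 bases before their starts, 8 of 68 members (11.8%) held the NRF1 core on either strand, against 2.56% of 27025 genes. Of the large subunit members 16.7% held it, and of the small subunit members 3.85%. The ETS letters were in 14.7% of members against 3.23% of all genes. For the E-box CACGTG, the site that Myc and Max bind, the shares were 7.35% and 6.86%, and for the YY1 core AAGATGGCG 2.94% and 0.710%. Of 65 cytosolic ribosomal protein genes, 12.3% held the ETS letters, 7.69% the E-box, 3.08% the YY1 core and 0 the NRF1 core. The ETS and YY1 shares were thus close to those of cytosolic ribosomal protein genes and not particular to the members. A C followed by 4 pyrimidines at the RefSeq start, the feature that marks mTORC1-sensitive mRNAs of cytosolic ribosomal proteins, was at the start of 0 of 68 members, against 15 of 65 cytosolic ribosomal protein genes (23.1%) and 3.01% of all genes. The search thus found the feature in a minority of the genes known for it, so 0 of 68 cannot show that members lack it. Among the other members lower in input RNA after the acute combination, Mrpl39 held the NRF1 core. Mrpl40, Mrps6, Mrpl55, Mrps31, Mrpl21 and Mrps7 held none of the letters searched, and no start was found for Mrpl38. These are matches of letters, not sites, and the search at the RefSeq start was added after the others.

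Levels per length were higher for large than for small subunit members and differed widely among members. As RPKM (counts per kilobase of exon and M counts) in the input RNA of vehicle mice, the median was 17.1 over 48 large subunit members (interquartile range 9.90 to 25.7) and 11.1 over 29 small subunit members (8.40 to 18.8). Mrpl12, the stalk protein through which translation factors reach the ribosome, was highest at 74.2 RPKM, followed by Mrpl34 at 65.4, Mrpl54 at 60.8 and Mrpl20 at 57.3. Mrps28, a relative of bacterial S1, was the highest small subunit member at 51.3 RPKM. Next to Mrpl53 (0.071 RPKM) the lowest were Mrpl33 at 2.33, Mrps34 at 2.46 and Mrps10 at 2.70. Before division by exon length their means were 17.1, 5.08 and 21.8 CPM, so the order of members by RPKM depends on the exon length used. The median coefficient of variation between the 6 vehicle mice was 11.5% for large and 12.3% for small subunit members. In naive lines Mrpl12 stood further above the rest, at 297 RPKM in input and 348 RPKM in polysomal RNA, but clone, culture and host differ together between the studies, and no test was made across them.

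In the acute study the single drugs changed no member past the threshold, an adjusted p under 0.05 by the edgeR quasi-likelihood test with Benjamini-Hochberg adjustment over all genes tested. After CX5461, 0 of 76 members passed in input RNA, where 0.399% of all 16055 genes passed, 1 member had an unadjusted p under 0.05, and DESeq2 called 0. Their median log2 fold change was 0.04, with values from -0.13 for Mrpl39 to 0.22 for Mrpl33. In polysomal RNA 0 of 76 passed, against 0.878% of 15374 genes, 4 had an unadjusted p under 0.05, and DESeq2 called 0. Here the median was also 0.04, from -0.24 for Mrpl14 to 0.28 for Mrpl50. For comparison, the median over cytosolic ribosomal protein genes was 0.12 in input RNA.

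After everolimus, 64 of 76 members had a negative estimate in input RNA, but 0 passed the edgeR test, as did 0.106% of all genes. An unadjusted p under 0.05 was found for 13 members, and DESeq2 called 0. The median was -0.10, from -0.33 for Mrpl22, a protein that lines the exit tunnel, to 0.14 for Mrpl33, against a median near 0 over all genes. In polysomal RNA the median was -0.06, 58 of 76 estimates were negative, 0 passed against 0.150% of all genes, 3 had an unadjusted p under 0.05, and DESeq2 called 0. The extremes were Mrps25 at -0.26 and Mrpl41 at 0.15. Cytosolic ribosomal protein genes, the mRNAs best known for their sensitivity to mTORC1, had a polysomal median of -0.16 after everolimus.

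After the combination, members fell in both fractions, a minority past the test and most others with negative estimates, and the medians of large and small subunit members were nearly the same. In input RNA 10 of 76 members passed, all lower (6 of 47 large and 4 of 29 small subunit members), where 7.48% of all genes passed and 4.17% passed as lower. The median log2 fold change was -0.17 over the members (-0.17 large, -0.16 small), with 72 of 76 estimates negative, against 0.00 over all genes tested. An unadjusted p under 0.05 was found for 35 members, and DESeq2 called 13, all lower. In polysomal RNA 6 of 76 passed, all lower (4 large, 2 small), against 7.42% of all genes in either direction and 2.95% lower. There the median was -0.18 (-0.18 large, -0.19 small), 73 of 76 estimates were negative, 40 had an unadjusted p under 0.05, and DESeq2 called 13. The polysomal share is above the background of lower genes and near that of either direction. The counts depended on the libraries kept: without those of vehicle mouse 6 and combination mouse 3, 26 members passed in input and 36 in polysomal RNA. These were the highest counts among the fits with libraries left out. With the 2 compared groups alone 4 members passed in input RNA, and 10 passed in polysomal RNA once the 4 libraries with much Lars2 and Yam1 were left out. The shares of all genes in these alternative fits are not given here, so their counts are not read as a result about the members.

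**Figure D1:**
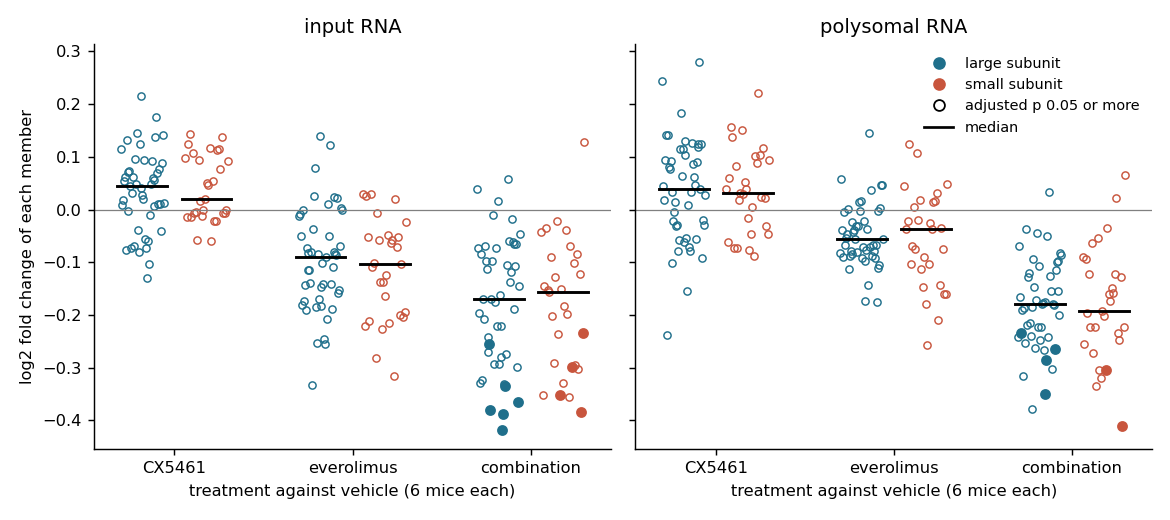
Log2 fold change of each member (vertical axis) after each drug against vehicle (horizontal axis), in input RNA (left) and polysomal RNA (right). Each circle is 1 of 76 members, large subunit in blue and small subunit in red, filled where the adjusted p is under 0.05, and bars are medians. Filled circles, 10 in input and 6 in polysomal RNA, appear after the combination only, all below 0.

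Of the 3 members called in both fractions after the combination, 2 are large subunit proteins found in mitochondria alone, Mrpl39 and Mrpl40, and the other is Mrps6, a relative of bacterial S6. Mrpl39 (chr16:84717576-84735742, minus strand) had 37.7, 43.5 and 51.1 CPM as lowest, median and highest input value in vehicle mice and 27.9, 33 and 42.0 CPM in combination mice. The ranges overlapped, with the combination median below every vehicle value. Its log2 fold change was -0.39 ± 0.10 (SE, 6 mice per group) with an adjusted p of 0.0224 by edgeR's quasi-likelihood test. With CX5461 alone it had 34.0, 40.3 and 45.7 CPM and with everolimus alone 31.6, 36.0 and 42.2 CPM, so the medians stepped down from vehicle through the single drugs to the combination. In polysomal RNA it went from 45.6, 50.4 and 60.3 CPM in vehicle to 34.2, 39.9 and 51.9 CPM, a log2 fold change of -0.35 ± 0.11 (adjusted p by edgeR 0.0485).

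Mrpl40 (chr16:18872018-18876862, minus strand) had 42.6, 45.4 and 55.0 CPM in vehicle input and 33.2, 36.5 and 45.0 CPM after the combination, -0.33 ± 0.08 on the log2 scale (adjusted p by edgeR 0.0215). In its polysomal RNA the values were 69.0, 75.4 and 85.4 CPM against 56.5, 60.5 and 72.5 CPM, a log2 fold change of -0.29 ± 0.08 (adjusted p by edgeR 0.0336). Mrps6 (chr16:92058270-92112227, plus strand) had 11.2, 13.9 and 18.7 CPM in vehicle input and 9.55, 11.0 and 12.5 CPM after the combination, -0.38 ± 0.11 on the log2 scale (adjusted p by edgeR 0.0369). Its polysomal values were 12.3, 16.1 and 20.5 CPM against 11.1, 11.8 and 15.1 CPM, with -0.41 ± 0.11 (adjusted p by edgeR 0.0262). For each of these genes the combination and vehicle ranges overlapped while the medians were apart. These 3 are all the members on chromosome 16, where the other genes had a median of -0.02 in input and -0.07 in polysomal RNA, a look at position made after the values were seen.

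The other members that fell in input RNA were Mrpl38, Mrpl22, Mrpl55, Mrps22, Mrps31, Mrpl21 and Mrps7. Mrpl38, a protein of the large subunit with no bacterial relative, had the lowest estimate, -0.42 ± 0.12, from 60.6, 69.7 and 92.9 CPM in vehicle to 44.8, 52.3 and 66.7 CPM in combination mice. The tunnel protein Mrpl22, whose promoter with the NRF1 letters is printed above, went from 17.2, 19.1 and 23.8 CPM to 12.9, 15.2 and 17.3 CPM, a log2 fold change of -0.38 ± 0.11. Mrps22, whose promoter holds the ETS letters, went from 30.1, 31.8 and 40.4 CPM to 22.8, 25.9 and 31.2 CPM, -0.35 ± 0.09. Mrpl55 was at -0.37 ± 0.11, Mrps31 at -0.30 ± 0.09, Mrpl21 at -0.26 and Mrps7, a head protein of the small subunit, at -0.24. Their adjusted p values by edgeR were 0.0478 or lower. The highest estimate of any member was 0.13, for Mrps9. In polysomal RNA the remaining calls were Mrps25 at -0.31 ± 0.09, Mrpl49 at -0.26 ± 0.08 and Mrpl12 at -0.23 ± 0.07, the last from 121, 129 and 145 CPM in vehicle to 106, 113 and 115 CPM after the combination, with no overlap between the groups. In input RNA Mrpl12 was at -0.33 ± 0.13 without passing the test (adjusted p by edgeR 0.103).

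Members related to bacterial proteins and those found in mitochondria alone were called at rates of 5 of 46 and 5 of 29 in input RNA. Mrps12, in the decoding centre, was at -0.15 ± 0.11 in input and -0.09 ± 0.08 in polysomal RNA. The S18 relatives Mrps18a, Mrps18b and Mrps18c were at -0.20, -0.29 and -0.13 in input and -0.27, -0.22 and -0.33 in polysomal RNA, Mrps30 at -0.07 and -0.15, and Mrps36 at -0.30 and -0.25, none past the threshold.

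**Figure D2:**
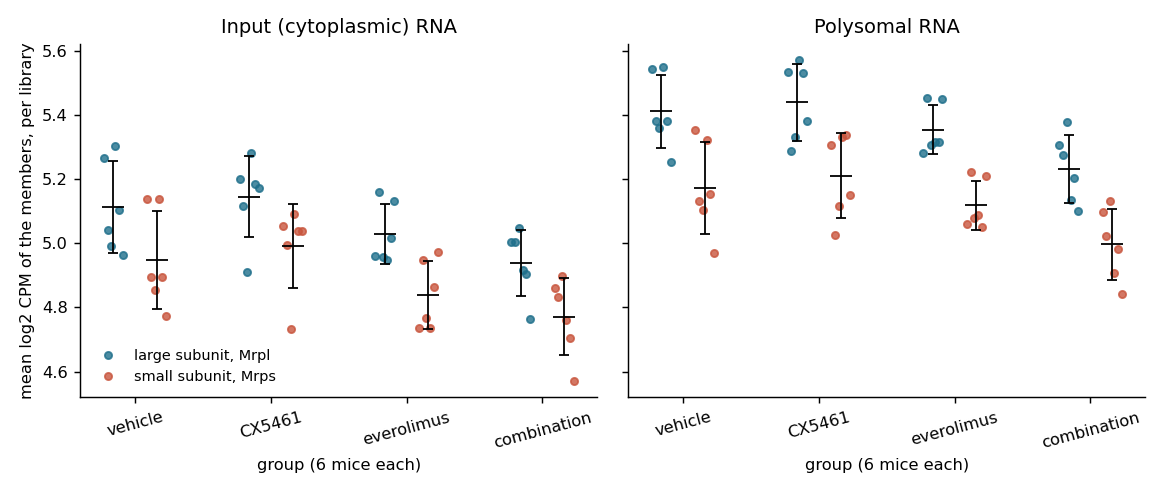
Mean log2 CPM over the tested large (blue) and small (red) subunit members in each library, by group, for input RNA (left) and polysomal RNA (right). Points are 6 mice per group and bars are the mean and SD. Both subunits are lowest after the combination, and in input RNA the mean distance between them lies between 0.15 and 0.19.

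Averaged over members, large subunit mRNAs had a mean log2 CPM of 5.11 ± 0.14 (SD, 6 mice) in vehicle input, 5.14 ± 0.13 after CX5461, 5.03 ± 0.09 after everolimus and 4.94 ± 0.10 after the combination. Small subunit mRNAs had 4.95 ± 0.15, 4.99 ± 0.13, 4.84 ± 0.11 and 4.77 ± 0.12. The difference between the subunits within a mouse was 0.16 ± 0.03, 0.15 ± 0.03, 0.19 ± 0.03 and 0.17 ± 0.02. The mean difference thus lay between 0.15 and 0.19 in all 4 groups, and it was not tested between them. In polysomal RNA the large subunit means were 5.41 ± 0.12, 5.44 ± 0.12, 5.35 ± 0.08 and 5.23 ± 0.11 in the same order, and the difference between subunits was 0.24, 0.23, 0.24 and 0.24.

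Against CX5461 alone, the combination lowered many members in polysomal RNA. Of 76 members 32 passed (20 of 47 large, 12 of 29 small), all lower, where 23.6% of all genes passed and 10.5% passed as lower; DESeq2 called 35 members. The median was -0.20 and 75 of 76 estimates were negative. Mrpl1, of the stalk that moves spent tRNA, was lowest at -0.49 ± 0.09 (adjusted p by edgeR 0.00120), with 22.2, 24.0 and 29.5 CPM after CX5461 and 15.7, 17 and 19.7 CPM after the combination. The 2 groups did not overlap. Vehicle mice had 18.8, 20.9 and 22.0 CPM of Mrpl1, between the 2. Mrpl22 and Mrpl50 at -0.39, Mrpl49 and Mrps6 at -0.38 and Mrps22 at -0.37 followed, and Mrpl12 (-0.33), Mrps18c (-0.37), Mrps30 (-0.25) and Mrps36 (-0.37) also passed. Of 87 cytosolic ribosomal protein genes 47 were lower in this comparison.

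In input RNA the same comparison gave 75 of 76 negative estimates and a median of -0.21, from -0.45 for Mrpl55 to 0.03 for Mrps9, but 0 members passed where 0.866% of all genes did. An unadjusted p under 0.05 was found for 52 members, and DESeq2 called 16, all lower. The edgeR count was 17 without vehicle mouse 6 and combination mouse 3 and 1 without everolimus mouse 3. Against everolimus alone the combination gave 0 calls among members in either fraction, where 0 of all genes passed in input and 0.0195% in polysomal RNA. The medians were -0.08 and -0.13, 6 and 16 members had an unadjusted p under 0.05, and DESeq2 called 0 in both. These comparisons share the combination mice. The interaction of the drugs, the part of the combined change that the sum of both single changes leaves, passed for 0 members and for 0 of all genes in both fractions. Its median was -0.10 in input, with 61 of 76 negative, and -0.15 in polysomal RNA, with 71 of 76 negative. Unadjusted p values under 0.05 numbered 5 and 16, and DESeq2 called 0 and 2.

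The other lists of the mitochondrial translation system gave calls in both directions. After the combination in input RNA, 0 of 6 mitochondrial ribosome proteins with other symbols passed, with a median of -0.31. Among 16 translation factors 2 were lower and 1 higher, with Tufm, the elongation factor that brings tRNA, at -0.40 and Guf1, a back-translocase, at 0.33. Among 25 assembly factors 1 was lower (Malsu1, -0.34), and among 20 mitochondrial aminoacyl-tRNA synthetases 1 (Yars2, -0.36). Of 9 genes for mitochondrial transcription and DNA 1 was higher, the transcription factor Tfb2m at 0.27. The 13 mRNAs made from mitochondrial DNA gave 0 calls and a median of 0.08 in input. In polysomal RNA 1 of 13 was lower (mt-Atp8, -0.64) with a median of -0.23. As mitochondrial ribosomes translate these mRNAs, their polysomal values do not measure loading on cytosolic ribosomes. Cytosolic ribosomal protein genes gave 0 of 88 calls and a median of -0.03 in input and 5 of 87 lower and -0.14 in polysomal RNA, beside the members' -0.17 and -0.18. Summed stroma markers, which move with the share of other cells, were 1036 to 1416 CPM in vehicle and 1223 to 1578 CPM in combination input, and their part in the members' change was not tested.

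Translational efficiency, the change of polysomal over input RNA in 1 model of both fractions, passed for 0 of 76 members after each drug in both studies, where 0 of all genes passed in each of the 6 comparisons. Acute medians were 0.02 after CX5461, 0.06 after everolimus and 0.01 after the combination, with unadjusted p under 0.05 for 4, 7 and 5 members. Cytosolic ribosomal protein genes stood at -0.10 after everolimus and -0.14 after the combination, with 78 and 81 of 88 negative. Relapse medians were -0.04, -0.12 and -0.03, with 19, 9 and 1 members at an unadjusted p under 0.05. DESeq2 called 0 in the acute comparisons and 6, 1 and 0 in the relapse comparisons. The lowest relapse estimate, Mrpl57 at -5.03 in CX5461 lines, comes from its 0 counts in the polysomal libraries of lines 14 and 39. Without line 20, the third CX5461 line, 27 members passed in that comparison. That fit leaves only lines 14 and 39 in the group, and its share of all genes is not given here.

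Most calls of lower members in the relapse lines came from 1 chromosome. Across the 6 comparisons with naive lines, 23 of 76 members passed at least once, 12 higher and 11 lower, and none in both directions. That is 30.3% of the members, against 34.2% of all genes tested in both tables, 18.6% higher and 15.8% lower, so the members' share was near the background. All 6 tested members on chromosome 6 were lower at least once, namely Mrpl19, Mrpl35, Mrpl51, Mrps25, Mrps33 and Mrps35, and they made 20 of the 27 lower calls. Of 5 members on chromosome 3, Mrpl24, Mrpl9 and Mrps28 were higher. The other 9 higher and 5 lower members lay on other chromosomes. Of the other tested genes of chromosome 6, 47.3% were lower at least once, and of those of chromosome 3, 38.2% were higher. These looks at position were chosen after the values were seen.

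In CX5461 lines 8 of 76 members passed in input RNA, 2 higher and 6 lower, where 8.37% of all genes passed, 4.61% higher and 3.76% lower. The 4 lowest were on chromosome 6. Mrps33, a small subunit protein found in mitochondria alone (chr6:39801804-39810988, minus strand), had 18.3, 20.1 and 18 CPM in naive lines 6, 33 and 38 and 9.0, 7.23 and 9.05 CPM in CX5461 lines 14, 20 and 39. The groups were far apart, with a log2 fold change of -1.15 ± 0.18 (adjusted p by edgeR 0.00420). Everolimus lines had 13.3, 12 and 13.4 CPM and combination lines 8.12, 10.7 and 13.6 CPM, all below the naive lines.

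Mrps25 (chr6:92169525-92184033, minus strand), whose exons overlap those of Nr2c2 on the other strand, had 29.3, 39.3 and 42.6 CPM in naive, 21, 18.3 and 21.1 CPM in CX5461, 30.4, 32.4 and 32.5 CPM in everolimus and 23.1, 22.2 and 21.8 CPM in combination lines. Its log2 fold change in CX5461 lines was -0.88 ± 0.14 (adjusted p by edgeR 0.00409). CX5461 and combination lines lay below every naive and everolimus line.

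Mrpl51 (chr6:125191801-125196269, plus strand) had 37.7, 36.5 and 42.8 CPM in naive, 24.0, 23.2 and 26.1 CPM in CX5461, 33.7, 33.3 and 41.9 CPM in everolimus and 21.5, 22.3 and 25.3 CPM in combination lines. Mrps35 (chr6:147042764-147073991, plus strand) had 27.0, 29.9 and 28.1, then 18, 18.4 and 17.9, then 31.4, 23.4 and 32.0, and last 19.9, 19.7 and 20.9 CPM. Both repeated the pattern of Mrps25, with log2 fold changes of -0.67 ± 0.13 and -0.65 ± 0.13 in CX5461 lines (adjusted p by edgeR 0.00909 and 0.0111). Off chromosome 6, the large subunit protein Mrpl18 (-0.59) and the small subunit protein Mrps15 (-0.54) were lower. Mrpl24, a protein at the exit of the tunnel (chr3:87919506-87923672, plus strand), was higher at 0.65 ± 0.17, from 14.8, 19.8 and 19 CPM in naive to 28.8, 23.1 and 31.9 CPM in CX5461 lines, and Mrps18b at 0.47 ± 0.13. The median over members was -0.02. Leaving out naive line 33 or 38, or CX5461 line 14 or 39, brought the count to 4, 5, 3 and 5, and Mrps25 and Mrpl51 passed whichever of the 12 lines was left out.

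In combination lines 14 of 76 members passed in input RNA, 7 higher and 7 lower, against 13.5% of all genes, 7.2% higher and 6.31% lower. Lower were Mrps33 (-0.80), Mrpl51 (-0.76), Mrps25 (-0.73), Mrpl35 (-0.67) and Mrps35 (-0.49) of chromosome 6, and Mrpl42 (-0.47) and Mrpl18 (-0.42). Higher were Mrps28 (0.81 ± 0.15), Mrpl4 (0.70), Mrpl38 (0.57), Mrpl9 and Mrpl37 (0.53 each), Mrps18b (0.49) and Mrps27 (0.37). Mrps28 (chr3:8802146-8923918, minus strand) had 25.4, 34.0 and 36.6 CPM in naive and 58.3, 58.7 and 51.8 CPM in combination lines, with CX5461 lines (39.6, 47.1 and 37.7 CPM) and everolimus lines (38, 47.1 and 42.1 CPM) between. The median was 0.05. Without naive line 6, 33 or 38 the count was 9, 6 and 7, and without combination line 8, 9 or 31 it was 5, 4 and 9. In everolimus lines 6 of 76 passed, 2 higher and 4 lower, against 11.7%, 6.25% higher and 5.46% lower. Mrpl42 (-0.56), Mrpl35 (-0.48), Mrps22 (-0.48) and Mrpl45 (-0.38), which ties the ribosome to the inner membrane, were lower, and Mrpl10 of the stalk base (0.46) and Mrpl28 (0.42) higher. The count fell to 0 without everolimus line 12 or line 26, and to 1 without everolimus line 4, naive line 6 or naive line 33, 2 without CX5461 line 39 and 3 without CX5461 line 14. The share of members called was below that of all genes in these everolimus lines, and only Mrpl35 of the 4 lower ones is on chromosome 6. Mrps12 differed widely between naive lines, at 16.2, 41.5 and 37.0 CPM, and its changes of -0.28, 0.00 and -0.11 in the 3 input comparisons were within that spread. Mrpl40 was at -0.02, 0.00 and 0.01.

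**Figure D3:**
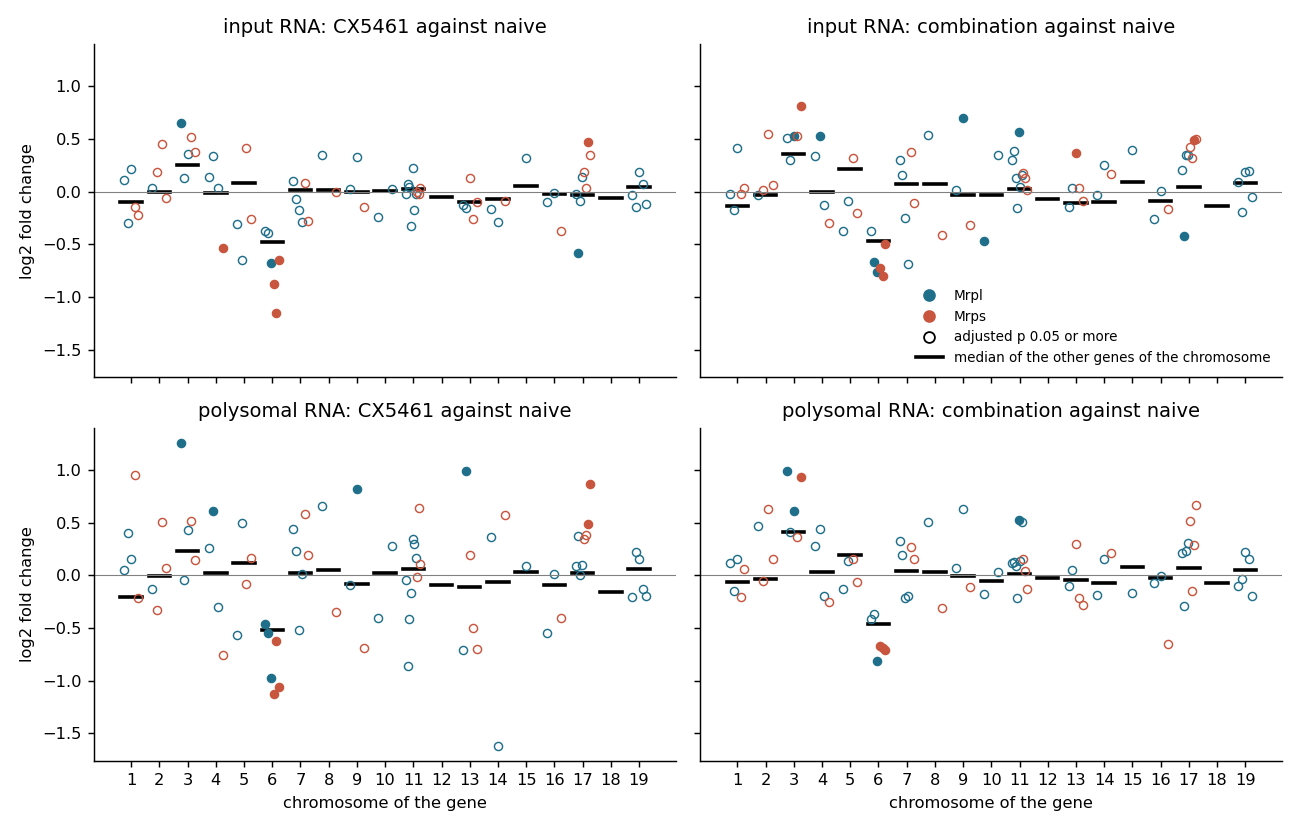
Log2 fold change of each member against naive lines (vertical axis) by the chromosome of its gene (horizontal axis), for CX5461 and combination lines in input and polysomal RNA. Circles are members, blue for Mrpl and red for Mrps, filled where the adjusted p is under 0.05, and black bars are medians of the other genes of each chromosome. On chromosome 6 both the members and the black bar lie below 0 in all 4 panels, and on chromosome 3 the bar lies above it.

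The members of chromosome 6 moved with the other genes of that chromosome. In input RNA the 626 other tested genes of chromosome 6 had a median log2 fold change of -0.47 in CX5461 lines, 84.8% of them negative and 26.7% called lower, and -0.47 in combination lines, 31.5% called lower. In polysomal RNA 656 such genes had medians of -0.51 and -0.46, and CX5461 line 20 by itself stood at -0.49. Each of the 8 windows of 20 Mb along chromosome 6 had a negative median, from -0.76 to -0.39 in CX5461 and from -0.84 to -0.35 in combination input. On chromosome 3 the medians were 0.25 and 0.36 in input and 0.23 and 0.41 in polysomal RNA. Its windows were less even, from -0.04 to 0.58 in CX5461 and from -0.01 to 0.64 in combination input. The other genes of chromosome 5 had a median of 0.22 in combination input, while its 4 members had a median of -0.15. In the acute study every chromosome's median stayed between -0.07 and 0.08 after each drug.

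Line by line, the input median of the other chromosome 6 genes, relative to the mean of the naive lines, was -0.50, -0.48 and -0.53 in CX5461 lines 14, 20 and 39 and -0.49, -0.44 and -0.54 in combination lines 8, 9 and 31. Naive lines stood at 0.06, 0.02 and -0.06 and everolimus lines at -0.17, -0.07 and 0.01. All 6 lines from mice that had received CX5461, alone or in the combination, thus lay at or below -0.44 and the other 6 at or above -0.17. Chromosome 3 stood at 0.06, -0.01 and -0.06 in naive lines, 0.06, 0.21 and -0.01 in everolimus lines 4, 12 and 26, 0.20, 0.49 and 0.18 in CX5461 lines and 0.40, 0.37 and 0.45 in combination lines. Everolimus line 12 lay above CX5461 lines 14 and 39, so chromosome 3 did not divide the lines by CX5461 as chromosome 6 did. In polysomal RNA CX5461 lines 14 and 39 were at 0.02 and 0.06 on chromosome 3, close to the naive lines. On chromosome 5 combination lines 8, 9 and 31 stood at 0.09, 0.46 and 0.20 in input, so line 9 exceeded its own chromosome 3 value there. Whether the DNA of these chromosomes differed in copy number was not measured, and its part in the members' levels was not tested.

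**Figure D4:**
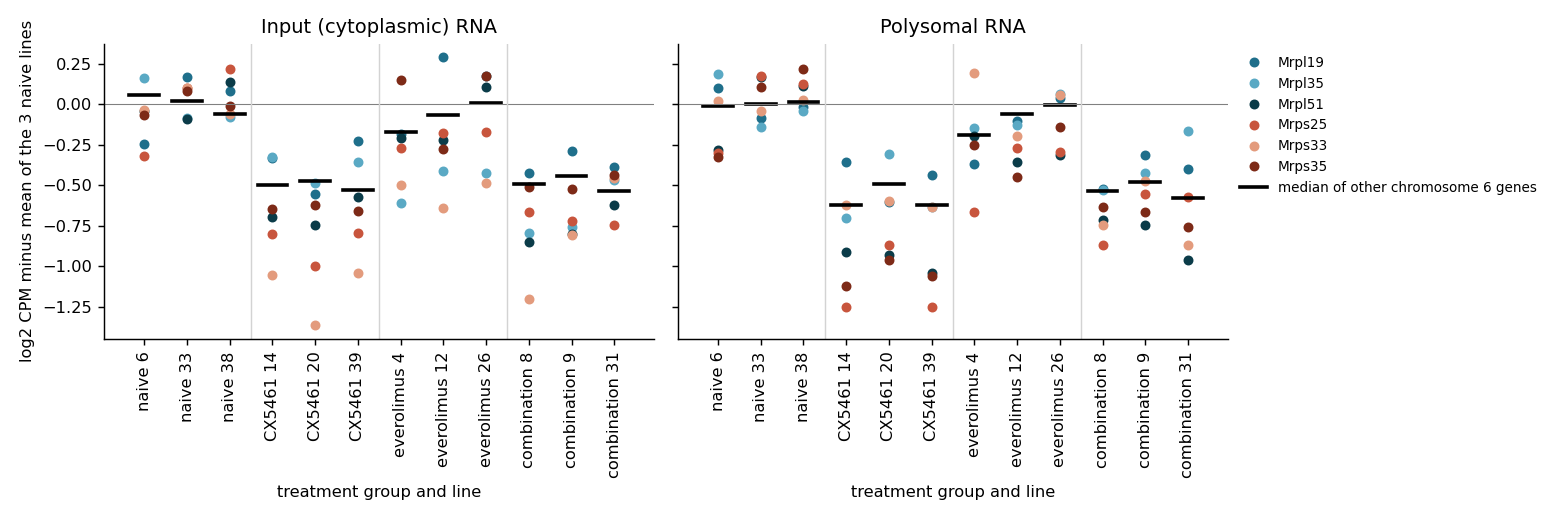
Log2 CPM minus the mean of the 3 naive lines (vertical axis) for the 6 tested chromosome 6 members in each line (horizontal axis), for input and polysomal RNA, with black bars for the median of the other genes of chromosome 6. The bars lie between -0.54 and -0.44 in the input of the 6 CX5461 and combination lines and between -0.17 and 0.06 in the 6 naive and everolimus lines.

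Across the 76 members, the correlation of a member's log2 fold change with the median of the other genes of its chromosome was, by Pearson's r and Spearman's rho, 0.65 and 0.37 in CX5461 input, 0.57 and 0.36 in combination input, 0.44 and 0.26 in CX5461 polysomal and 0.67 and 0.44 in combination polysomal RNA. In the 6 acute comparisons with vehicle r was 0.05 to 0.30. Members of 1 chromosome share its median and all share the same libraries, so these are descriptions. The SD of the members' changes was 0.32 in CX5461 and 0.36 in combination input, and 0.25 and 0.30 after the chromosome's median was taken off.

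Some of the called genes of the other nuclear mitochondrial lists shared these positions. Over the CX5461 and combination comparisons in both fractions, 5 of 6 lower calls, from 2 of 3 genes, were on chromosome 6. Of the higher calls 12 of 27, from 5 of 18 genes, were on chromosome 3. In CX5461 input the called genes of the other nuclear lists were Dap3 (0.73), a small subunit protein, Gatb (0.59) of the glutamyl amidotransferase and the tRNA synthetases Tars2 (0.68) and Wars2 (0.81), all on chromosome 3, and Ssbp1 (-1.04), which coats mitochondrial DNA, on chromosome 6. In combination input Ssbp1 (-1.09) and the small subunit protein Ptcd3 (-0.70), both of chromosome 6, were lower. Dap3 (0.65), Gatb (0.82), Tars2 (0.89), Wars2 (0.82) and the elongation factor Gfm1 (0.64) of chromosome 3 were higher, as were Polg2 (1.04) of chromosome 11 and Mtg1 (0.48) and Tufm (0.55) of chromosome 7. The mRNAs made from mitochondrial DNA gave 0 of 13 calls in the 4 comparisons of CX5461 and combination lines with naive lines, with medians of -0.34 and -0.39 in input and -0.90 and -0.33 in polysomal RNA. Here too the polysomal values of these mRNAs do not measure loading on cytosolic ribosomes.

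Everolimus lines offered a reference other than the naive lines, although CX5461 and combination lines are then compared with lines that had a drug. In input RNA Mrpl51, Mrps25 and Mrps35 were at -0.57, -0.66 and -0.67 in CX5461 against everolimus lines, and the other genes of chromosome 6 had a median of -0.38. Mrpl35, already lower in everolimus lines, was at 0.09. Of the 6 tested chromosome 6 members 3 passed as lower there, where 2.43% of all genes did. In polysomal RNA 4 of 6 passed as lower, against 1.98% of all genes. In combination against everolimus lines 1 of 6 passed as lower in each fraction, Mrpl51 (-0.66) in input and Mrps33 (-0.71) in polysomal RNA. The shares of all genes lower were 0.463% and 0.426%, and the chromosome 6 medians -0.38 and -0.41.

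In polysomal RNA of CX5461 lines 12 of 76 members passed, 6 higher and 6 lower, where 19.5% of all genes passed, 11.4% higher and 8.08% lower, so the members' share was below the background. The 6 lower ones were the 6 tested members of chromosome 6: Mrps25 (-1.13 ± 0.18), Mrps35 (-1.07 ± 0.14), Mrpl51 (-0.97 ± 0.13), Mrps33 (-0.62), Mrpl35 (-0.54) and Mrpl19 (-0.47). Higher were Mrpl24 (1.26 ± 0.17), Mrpl36 (0.99), Mrps34 (0.87), Mrpl4 (0.81), Mrpl37 (0.61) and Mrps18b (0.49). Without the polysomal libraries of lines 14 and 39, which leaves line 20 alone in its group, 3 members passed, among them Mrpl51 at -0.95 and Mrps35 at -0.98 (adjusted p by edgeR 0.0279 and 0.0340). The lone line is then assumed to vary like the other groups. Leaving out single lines gave 7 without naive line 6, 4 without naive line 33, naive line 38, CX5461 line 14 or CX5461 line 39, and 44 without CX5461 line 20. The last fit leaves only lines 14 and 39 in the group, and its share of all genes is not given here. The polysomal values of these lines lay outside the range of the other libraries for 47.4% of 10212 genes. With lines 14 and 39 both left out, Mrps25 was at -0.89, Mrps33 at -0.61, Mrpl19 at -0.62 and Mrpl35 at -0.32 without passing.

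The polysomal values by line show which members rest on lines 14 and 39. Mrpl51 had 62.3, 84.9 and 81.8 CPM in naive and 40.2, 39.6 and 36.7 CPM in CX5461 lines 14, 20 and 39, so line 20 matched the others. For Mrpl36 the values were 23.8, 21.9 and 20.8 CPM in naive and 57.0, 26.6 and 48.8 CPM in CX5461 lines, high in 14 and 39 alone. Mrpl12 had 466, 519 and 615 CPM in naive and 200, 495 and 188 CPM in CX5461 lines, and its log2 fold change of -0.86 ± 0.33 did not pass. Mrpl24 was at 33.3, 35.9 and 36.5 CPM in naive and 101, 60.5 and 91.3 CPM in CX5461 lines, all above the naive lines. Of 87 cytosolic ribosomal protein genes 25 were higher and 2 lower in this comparison.

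In polysomal RNA of combination lines 8 of 76 members passed, 4 higher and 4 lower, against 10% of all genes, 4.78% higher and 5.22% lower. Mrpl51 (-0.82 ± 0.13), Mrps35 (-0.71), Mrps33 (-0.69) and Mrps25 (-0.68) were lower and all are on chromosome 6. Mrpl24 (0.99 ± 0.17), Mrps28 (0.94 ± 0.18), Mrpl9 (0.61) and Mrpl38 (0.52) were higher, the first 3 of chromosome 3. Mrps28 had 63.0, 74.9 and 81.5 CPM in naive and 121, 152 and 147 CPM in combination lines, with no overlap. Mrpl9, whose promoter holds the NRF1 letters on both strands, had 115, 133 and 139 CPM against 175, 206 and 209 CPM. These combination and naive libraries do not include lines 14 and 39, but the fit shares its estimate of spread with them, and 14 members passed without them. The count was 3 without naive line 33, naive line 38 or combination line 31, 4 without combination line 9 and 16 without CX5461 line 20.

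In polysomal RNA of everolimus lines 0 of 76 members passed, where 0.115% of all genes did, 3 had an unadjusted p under 0.05, and DESeq2 called 0. Estimates ran from -0.41 for Mrps25 to 0.44 for Mrpl37, with a median of -0.06. The mean difference between large and small subunit members within a line was 0.21 to 0.25 in input groups, and in polysomal RNA 0.24 in naive, 0.19 ± 0.12 (SD, 3 lines) in CX5461, 0.27 in everolimus and 0.33 ± 0.02 in combination lines. The wide CX5461 spread includes lines 14 and 39.

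The relapse columns also form runs, 2 in the input and 3 in the polysomal table, and the labels name no batch. The runs mix the groups, except that 1 polysomal run holds CX5461 lines 14 and 39 alone. With run as a term beside treatment, 15 of 76 members differed between the second and the first run of input columns, 2 higher and 13 lower, a share near the 20.4% of all genes. With that term the count of members called in input RNA was 14 for CX5461, 27 for everolimus and 25 for combination lines, against 16.2%, 30.4% and 25.3% of all genes in the same fit. In polysomal RNA the CX5461 change with that term rests on line 20 alone. There Mrpl51 was at -0.79, Mrps35 at -0.78, Mrps25 at -0.90 and Mrpl19 at -0.69.

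Members differed among themselves in how much of their RNA was on polysomes. In vehicle mice 24 members were higher and 25 lower in polysomal than in input RNA, where 56.9% of all genes passed, 24.7% higher and 32.2% lower. Normalization sets the overall level of the 2 fractions to the same value, so these are relative changes. The median was -0.01 over members (0.00 large, -0.05 small) against -0.07 over all genes. Cytosolic ribosomal protein mRNAs, which are known to be partly held off polysomes, had a median of -0.66 with 73 of 88 lower, and the 13 mitochondrially encoded mRNAs -2.16 with 13 lower. The members thus lay near the middle of all genes and away from cytosolic ribosomal protein mRNAs. The mitochondrially encoded mRNAs are translated on mitochondrial ribosomes, so their value is not a like measure of loading on cytosolic ribosomes.

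The most polysome-loaded members of vehicle mice were Mrps34 at 0.75 ± 0.16, Mrpl9 at 0.65 ± 0.04, Mrpl27 at 0.65, Mrps26 at 0.58, Mrps25 at 0.48 and Mrpl46 at 0.43. The least loaded were Mrps18b at -0.95 ± 0.08, Mrpl42 at -0.94 ± 0.07, Mrps36 at -0.91, Mrpl30 at -0.80, Mrps24 at -0.73 and Mrps11 at -0.54. The 3 relatives of bacterial S18 differed: Mrps18b and Mrps18a (-0.40 ± 0.06) were lower in polysomal RNA and Mrps18c (0.20 ± 0.07) higher. Mrps18b and Mrps34 share exon bases with other genes, and Mrps34 had one of the largest spreads between mice.

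In naive lines 22 members were higher and 16 lower in polysomal RNA, 38 in all and 24 without naive line 38, where 44.1% of all genes passed, 23% higher and 21.1% lower. The median was 0.04 over members against -0.10 over all genes and -0.63 over cytosolic ribosomal protein genes. Highest were Mrpl47 (1.27), Mrpl46 (0.95), Mrpl50 (0.91), Mrps9 (0.87), Mrpl39 (0.82) and Mrpl9 (0.81), and lowest Mrpl54 (-1.18), Mrpl4 (-1.03), Mrps24 (-0.99), Mrpl34 (-0.95), Mrps36 (-0.95) and Mrpl37 (-0.91). Mrps18a (-0.77), Mrps18b (-0.56) and Mrps18c (0.69) kept the signs they had in mice.

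The orders of the members in the 2 studies were related. Of the members called higher, 12 were so in both, 50% of the acute and 54.5% of the relapse calls, and 9 were lower in both, 36% and 56.2%. Mrpl18, Mrpl22, Mrpl35, Mrpl36 and Mrps31 were called in opposite directions. Over 76 members Pearson's r was 0.48 and Spearman's rho 0.45 between the studies, as a description over genes that share libraries within a study. Large shares of all genes also passed in both comparisons. The overlap and correlation over all genes are not given here, so neither can be called particular to the members. With coding length r was 0.11 in vehicle mice and 0.27 in naive lines.

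**Figure D5:**
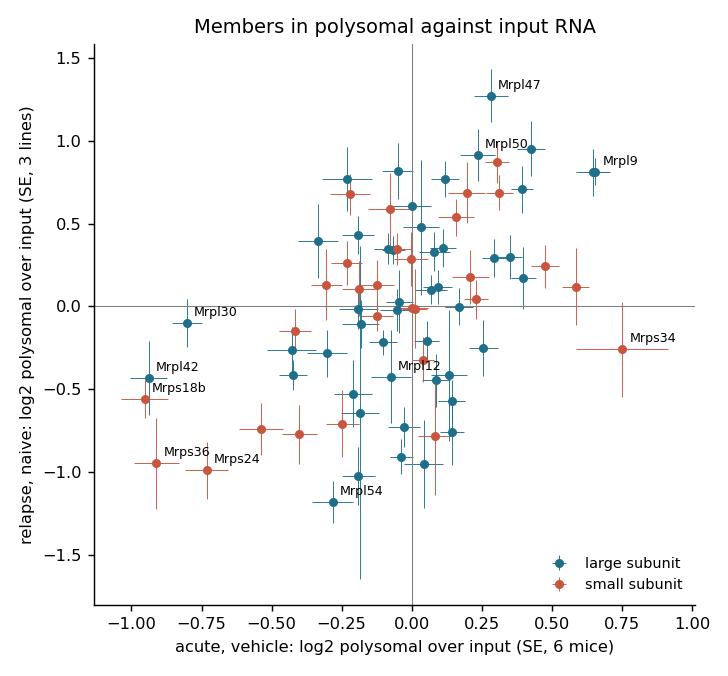
Log2 polysomal over input RNA of each member in vehicle mice (horizontal axis, SE, 6 mice) and in naive lines (vertical axis, SE, 3 lines), large subunit in blue and small subunit in red. Mrps18b, Mrps36 and Mrps24 are low in both and Mrpl9 is high in both, and r over the 76 members is 0.48.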

How the data were processed

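The authors deposited 4 tables of raw counts per gene symbol. Per the submitters' processing notes, reads were aligned with TopHat2 to GRCm38 and counted with HTSeq. Their versions, the annotation and the strand setting are not given in the sources used here. Libraries were single-end and made after ribodepletion, per the labels' protocols.

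Reads with no gene or several, 8.32% to 36.1% of acute counts, were left out. Each table was fitted with edgeR 4.0.16 (quasi-likelihood test, TMM, filterByExpr, all 4 groups in 1 model) in R 4.3.3, with Benjamini-Hochberg adjustment over all genes tested. For translational efficiency, both fractions were fitted together with mouse or line as a block and the interaction of fraction and treatment tested. Each SE was derived from the log2 fold change and the F statistic. CPM used TMM library sizes; per length, CPM was divided by exon length of GENCODE M21. No 2 libraries of a group were alike (0 of 144 pairs identical). The labels do not say whether lines came from separate mice, so relapse p values measure the spread between lines.

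Members and lists were chosen with earlier results of these data known. Named in each comparison are members past the threshold (the 6 largest each way where more than 10), otherwise the 2 largest estimates each way, and Mrpl40, Mrpl12, Mrps12, Mrps18a, Mrps18b, Mrps18c, Mrps30 and Mrps36 throughout. Alternatives were DESeq2 1.42.0, other size factors, no count filter, fits of 2 groups only, replicate number as a block, libraries left out, and, added after seeing the data, the run of columns and the polysomal libraries of lines 14 and 39 left out. The test was tried on simulated data. Promoters are RefSeq sequences of GRCm38.p6.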

Additional observations from a re-analysis of the deposited data

Results flagged for a closer look

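Of 104 groups of 6 samples examined for a single value far from the rest, 2 were set aside, both for the same library, and chance alone sets aside about 1 in 20. In acute input RNA the mean log2 CPM of the small subunit members was 4.73 in CX5461 mouse 3, below the other 5 mice of the group at 4.99 to 5.09. In the same library Mrps12, of the decoding centre, had 37.0 CPM, below 53.7 to 63.7 CPM in the other 5.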

How the results depend on the processing

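No alternative reversed a named member: of 4134 values of named members under alternatives, 3795 kept their side of the threshold, 281 lost a call and 58 gained one. The counts of called members moved more. With DESeq2 the counts became 16 for the acute combination against CX5461 in input RNA, 13 for the combination against vehicle and 2 for the interaction in polysomal RNA, 13 for everolimus lines in input, 21 and 15 for CX5461 and combination lines in polysomal RNA, and 6 and 1 for translational efficiency of CX5461 and everolimus lines. Without the filter on low counts, where more genes were tested, they became 6 and 1 for the acute combination in input and polysomal RNA, 5 for CX5461 lines in input, 5 for combination lines in polysomal RNA, and 1 and 4 for translational efficiency after acute everolimus and of CX5461 lines. With the compared groups alone, which leaves fewer libraries to estimate the spread, they became 4 for the acute combination, 5, 0 and 6 for CX5461, everolimus and combination lines in input, and 5 and 14 for CX5461 and combination lines in polysomal RNA. Without the polysomal libraries of CX5461 lines 14 and 39 they became 3 and 14 for the latter, and without the libraries rich in 2 genes 10 for the acute combination in polysomal RNA. Except where the construction of the alternative is named, the cause was not tested.

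The run of columns, a term added after seeing the data, gave 14, 27 and 25 calls for CX5461, everolimus and combination lines in input. In polysomal RNA it gave 1 and 18 for everolimus and combination lines, and 22 for translational efficiency of everolimus lines. The same fits called 3.64% and 26.6% of all genes in polysomal RNA and 18% in that efficiency. The polysomal CX5461 count is left out because with the term it rests on line 20. Replicate numbers did not pair the acute mice: libraries of 1 number had a mean correlation of deviations of 0.07 in input and -0.01 in polysomal RNA, and each library correlated best with its own number in 4 and 6 of 24 cases. With a replicate block on the number the acute combination gave 4 calls in input and 2 in polysomal RNA. Polysomal against input RNA in vehicle mice was fitted with a block on the mouse, and without the replicate block it gave 32 calls in place of 49. No other count moved past 1.5 times with or without the block.

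The median of large minus that of small subunit members stayed small in these fits. With the run of columns it became -0.029 for everolimus lines in input, 0.076 and 0.12 for CX5461 and combination lines in polysomal RNA, 0.056 and 0.065 for translational efficiency of everolimus and combination lines and 0.0026 for polysomal over input RNA in naive lines. Without lines 14 and 39 it was 0.10 in polysomal RNA and 0.021 in translational efficiency of CX5461 lines, and without the replicate block 0.032 in translational efficiency of combination lines. Leaving out libraries, it ran from -0.068 to 0.024, -0.011 to 0.050 and -0.013 to 0.074 for CX5461, everolimus and combination lines in input, and from -0.071 to 0.023, -0.046 to 0.054 and 0.020 to 0.12 in polysomal RNA. In translational efficiency it ran from -0.11 to 0.013, -0.10 to 0.045 and -0.0032 to 0.11 in the same order, from -0.020 to 0.012 for the acute combination, and from -0.11 to 0.031 for polysomal over input RNA in naive lines.

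Counts with libraries left out ran from 7 to 26 and 5 to 36 for the acute combination in input and polysomal RNA and from 1 to 17 for the combination against CX5461 in input. In relapse input they ran from 3 to 7, 0 to 6 and 4 to 14 for CX5461, everolimus and combination lines, in relapse polysomal RNA from 4 to 44 and 3 to 16 for CX5461 and combination lines, in translational efficiency of CX5461 lines from 0 to 27, and in polysomal over input RNA of naive lines from 24 to 45. Shares of all genes in these fits are not given here, so the counts show how the fits vary and not a result about the members. With 3 lines per group and the median member at 525.5 counts in the relapse input, small changes in the lines could go undetected.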
